A study of Mus musculus with 8 samples.

Results

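The genes described here carry the signals by which a macrophage is told to eat or to spare another cell, and by which it stimulates or restrains T cells. They are Sirpa, Cd47, Cd24a and Siglec1, which act in contact and phagocytosis, Cd274, Pdcd1lg2, Havcr2 and Lgals9 of the inhibitory checkpoints, and the costimulatory ligands Cd80 and Cd86. All 10 were found among the 18194 genes that have a probe set annotated with exactly 1 gene symbol, and together they have 24 of the 45101 probe sets. A gene is represented by its probe set with the highest mean over the 8 arrays, called its brightest probe set, and the other probe sets are given beside it.

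Expression was measured on Affymetrix arrays in macrophages sorted by flow cytometry for the surface protein F4/80 from mammary tumours of 80-day-old FVB mice. All mice carried PyMT, a viral oncogene that causes mammary tumours, and an E2f3 gene flanked by recombination sites (E2f3 f/f). The control group (genotype PyMT;E2f3 f/f, 4 arrays, replicates B, C, D and G) had no Cre recombinase, and the E2f3-deleted group (genotype PyMT;Lys Cre:E2f3 f/f, 4 arrays, replicates A, E, F and H) also carried Cre under the control of the lysozyme gene, which is active in macrophages and other myeloid cells such as neutrophils. Because no group has Cre with an intact E2f3 gene, the deletion and the presence of Cre cannot be told apart. The labels do not say whether each array is a separate animal, so the spread behind each p-value may be partly technical.

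As background, the receptor SIRPα, encoded by Sirpa, sits on macrophages and binds CD47 on other cells. Binding recruits phosphatases to the tail of SIRPα and holds back engulfment. CD24 on a target cell restrains macrophages in a like way through a receptor of the Siglec family. PD-L1 (Cd274) and PD-L2 (Pdcd1lg2) bind PD-1 on T cells and dampen them, whereas CD80 and CD86 bind CD28 and stimulate them, or CTLA-4 and restrain them. Tumour-associated macrophages are known to carry several of these molecules at once.

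Several of these genes are known to be induced by interferons, and E2F3 is itself a transcription factor, so the promoters were searched for matching letters. Promoters were taken from RefSeq (GRCm38.p6), each 300 bases long and lying mostly before the start of the gene, and 6 of the 10 genes matched by symbol (Cd47, with 2 starts, Cd274, Pdcd1lg2, Havcr2, Lgals9 and Cd80), while Sirpa, Cd24a, Siglec1 and Cd86 did not. The E2F site, searched on both strands as TTTCCCGC, TTTCGCGC, TTTGGCGC and TTTGCCGC, was in none of them, and it is in 2.27% of the 32851 promoters of that table. The gamma-activated site TTCNNNGAA was also in none, against 8.30% of all promoters. The core site of interferon regulatory factors, AANNGAAA, was in those of Cd274, Pdcd1lg2, Lgals9 and Cd80, against 23.9% of all promoters. Such a match is a description of letters and no evidence of binding.

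The matches to AANNGAAA that lie before the start of the gene are shown. What they share follows from the pattern searched. Each is read 5′ to 3′ on the strand of the gene, with the match in capitals. They lie at chr19:29367243-29367290 (Cd274, plus strand), chr19:29410864-29410911 (Pdcd1lg2, plus strand), chr11:78985048-78985095 (Lgals9, minus strand, the farther match) and chr11:78984952-78984999 (Lgals9, minus strand, the nearer match).
Cd274: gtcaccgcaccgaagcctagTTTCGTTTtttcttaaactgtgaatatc
Pdcd1lg2: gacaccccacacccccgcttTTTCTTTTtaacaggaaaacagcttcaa
Lgals9, farther: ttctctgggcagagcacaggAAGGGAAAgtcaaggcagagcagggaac
Lgals9, nearer: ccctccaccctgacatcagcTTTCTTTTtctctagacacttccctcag
In Cd274, Pdcd1lg2 and the nearer Lgals9 stretch the core site lies on the opposite strand. Counted from the start of the gene, the match spans positions −175 to −168 in Cd274 and −35 to −28 in Pdcd1lg2. The Lgals9 matches shown span −151 to −144 and −55 to −48, a further one lies after the start, and so does that of Cd80.

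The arrays were alike in distribution, their median log2 signal being 5.65 to 5.69. Replicate H stood apart: its mean correlation with the rest of the E2f3-deleted group, over all probe sets, was 0.983. The same measure was 0.990 to 0.991 in replicates A, E and F, and 0.994 to 0.995 among controls. The mean correlation with the control arrays was 0.992 in replicate A, 0.994 in E, 0.992 in F and 0.982 in H. Replicates A, E and F were thus no closer to their own group, which includes H, than to the controls. The 12 macrophage markers all passed the filter on dim genes, with control means from 9.67 (Itgam) to 14.56 (Lyz2). Their summed linear signal was 138903 to 148660 in controls and 129192 to 136369 in E2f3-deleted macrophages, without overlap. Both E2f3 probe sets differed little (−0.05 with a 95% interval from −0.24 to 0.15 and −0.13 from −0.33 to 0.06), and whether they lie in the deleted part is unknown, so they do not check the labels. In sorted bulk samples such as these, fewer cells of a type and less RNA per cell cannot be told apart.

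In E2f3-deleted macrophages 9 of the 10 genes had a lower mean and only Cd24a a higher one. None passed an adjusted p of 0.05. The comparison asks how these genes differ between the E2f3-deleted and the control group, where deletion and Cre go together. Of the 10, 9 passed the filter on dim genes and entered the test, with Pdcd1lg2 left out, and 8 of these 9 had a lower mean, against 58.7% of the 10916 genes tested. Their median difference was −0.21 on the log2 scale, where that of all genes tested was −0.03. An unadjusted p below 0.05 was reached by 2 lower genes, Sirpa and Havcr2, against 6.91% of all genes tested, and 1 higher gene, Cd24a, against 7.27%. Over all genes tested limma called 0 at an adjusted p of 0.05 and 1548 at an unadjusted p under 0.05 (14.2%), and an equal-variance test without moderated variances also called 0. Without E2f3-deleted replicate E limma called 60 genes and without replicate H 14, and no member was among either.

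**Figure D1:**
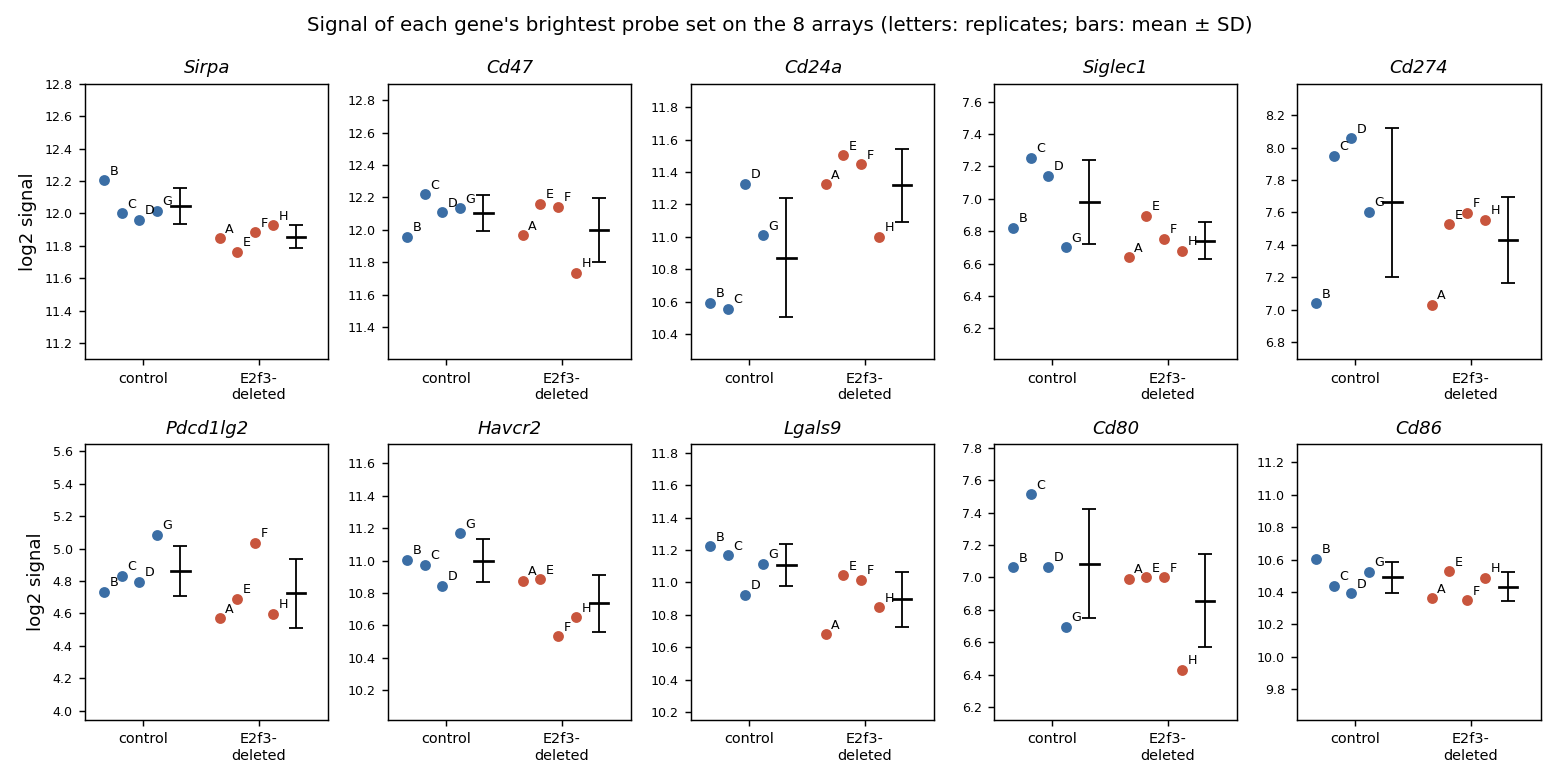
Log2 signal of the brightest probe set of each of the 10 genes (vertical axes, each spanning the same range of log2 units around the mean of its gene) on the 4 control arrays (blue) and the 4 E2f3-deleted arrays (red). Letters are replicates and black bars the mean ± SD of a group; only for Sirpa do the groups not overlap.

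Sirpa, the macrophage's receptor for CD47, had log2 signals of 12.20, 12.002, 11.96 and 12.02 in control replicates B, C, D and G. In the E2f3-deleted group they were, in the order A, E, F and H, 11.85, 11.76, 11.88 and 11.93. Every E2f3-deleted array lay below every control array, with the highest of them, replicate H, just under the lowest control, replicate D. Control arrays averaged 12.05 ± 0.11 and E2f3-deleted arrays 11.86 ± 0.07 (SD, n = 4 per group). The difference was −0.19 log2 units (SE 0.07, limma, adjusted p = 0.293), or 0.877-fold. The exact two-sided permutation test gave p = 0.0286, the smallest that 4 against 4 arrays allow, and 4.23% of all genes tested likewise lay lower without overlap. Sirpa was the 1 gene of the 9 whose groups did not overlap, against 8.49% of all genes tested in either direction, and 0 of the 9 lay higher without overlap, against 4.26%.

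The other probe sets of Sirpa had larger differences. The second had 9.15, 9.12, 9.004 and 8.99 in controls B, C, D and G and 8.62, 8.89, 8.89 and 8.43 in E2f3-deleted A, E, F and H, again without overlap. Its difference was −0.36 (95% interval −0.61 to −0.11, limma over all probe sets, adjusted p = 0.395). The dimmest differed by −0.38 (interval −0.78 to 0.01), and its groups overlapped through replicate E at 8.46. On the same arrays 11 of 12 macrophage markers had a lower mean, against 58.7% of all genes tested, with a list median of −0.12. The part of these markers in the Sirpa values was not tested. The letters of the scan files differ from those of the titles, and grouping by them, which exchanges control B and E2f3-deleted F, gave −0.03 for Sirpa, −0.03 for Havcr2 and 0.02 for Cd24a.

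Cd47, the ligand that SIRPα binds and that nearly all cells carry, had overlapping groups. Its brightest probe set had 11.96, 12.22, 12.11 and 12.13 in controls B, C, D and G. In E2f3-deleted A, E, F and H it had 11.97, 12.16, 12.14 and 11.74. Replicate H alone lay below all controls, and the other E2f3-deleted arrays lay within their range. The difference was −0.10 (SE 0.11, limma, adjusted p = 0.669), with a 95% interval from −0.35 to 0.14, and without replicate H it was −0.01. It was −0.20 by scan file letter and −0.28 with the median of the endothelial markers as a covariate (limma, adjusted p = 0.893 and 0.299). Of the other probe sets of Cd47, those with control means of 10.36 and 10.16 differed by −0.01 and −0.08, and the dim ones, at 6.46 and 6.18 in controls, by 0.01 and 0.15.

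Partners of this axis were counted in a list of 15 genes, of which 12 were tested. In that list 8 had a lower and 4 a higher mean, where 58.7% of all genes tested had a lower one. The median was −0.07, but 0.0061 by scan file letter, −0.04 without control B and −0.04 without E2f3-deleted H. Of the lower ones 3 had an unadjusted p below 0.05, against 6.91% of all genes tested, and none an adjusted one. Lrp1, an engulfment receptor of macrophages that binds calreticulin, had 11.81, 11.80, 11.79 and 11.71 in controls B, C, D and G. It had 11.38, 11.41, 11.37 and 11.73 in E2f3-deleted A, E, F and H, so that replicate H alone lay within the control range (difference −0.30, SE 0.09, limma, adjusted p = 0.237). Ptpn6, which encodes the phosphatase SHP-1 that SIRPα recruits, was 11.40 ± 0.13 in controls and 11.23 ± 0.07 in E2f3-deleted macrophages. Its groups did not overlap, and the difference was −0.17 (SE 0.07, limma, adjusted p = 0.350). The kinase gene Ptk2b had a difference of −0.25 (SE 0.10, limma, adjusted p = 0.346). The brightest member was Tyrobp, the adaptor DAP12 of activating receptors, with −0.08. Calr, which encodes the eat-me signal calreticulin, had 0.02.

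Cd24a, a glycosylated surface protein that also marks mammary epithelium, B cells and neutrophils, was the only one of the 10 with a higher mean. Its brightest probe set had 10.59, 10.56, 11.33 and 11.01 in controls B, C, D and G. In E2f3-deleted A, E, F and H it had 11.32, 11.50, 11.45 and 11.001. Controls B and C were the lowest of all arrays, E2f3-deleted E and F the highest, and control D was level with E2f3-deleted A, so the groups overlapped. Control arrays averaged 10.87 ± 0.37 and E2f3-deleted arrays 11.32 ± 0.22 (SD, n = 4 per group), a ratio of 1.36. The difference of 0.45 log2 units (SE 0.19) had a 95% interval from 0.01 to 0.88 and did not pass after adjustment (limma, adjusted p = 0.346; exact permutation test, two-sided, p = 0.143). The other probe sets had 0.32 (interval −0.04 to 0.69) and 0.46 (interval 0.08 to 0.84). The 3 probe sets thus had the same direction and overlapping intervals.

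The Cd24a signal moved with epithelial markers. The summed linear signal of the 14 epithelial genes was 24198, 24365, 35535 and 26583 in controls B, C, D and G. In E2f3-deleted A, E, F and H it was 31799, 37188, 37158 and 26494. This sum is weighted to the brightest gene, Csn3, at 14.17 in controls and 14.32 in E2f3-deleted macrophages. Epcam had 8.37 and 8.77, and Krt8 11.21 and 11.62. The 4 arrays with the highest epithelial sum, replicates E, F, D and A, were also the 4 with the highest Cd24a, and in the same order. By the per-array median of the markers, which does not rest on Csn3, the same 4 were highest, in the order F, D, E and A. Pearson's r between Cd24a and the per-array median of the epithelial markers was 0.927 over the 8 arrays, and 0.962 without replicate H. This r is a description, since all genes of an array share its cells and its normalization, and part of it comes from the difference between the groups. Adding the epithelial median to the model, which was decided once the data had been seen, gave a Cd24a difference of 0.23 (SE 0.08, limma, adjusted p = 0.261). The endothelial median in its place, likewise decided after the data were seen, gave 0.15 (SE 0.23, limma, adjusted p = 0.751), and Pearson's r between Cd24a and that median was 0.766. Of the 14 epithelial genes, 13 had a higher mean in E2f3-deleted macrophages (median 0.41), where 58.7% of all genes tested had a lower one. Among the 13, 2 had an unadjusted p below 0.05, against 7.27% of all genes tested, and all 14 passed the filter. For the 9 B cell markers the summed signal ran from 2952 to 5166 in controls and from 3141 to 5424 in E2f3-deleted macrophages. For the 9 neutrophil markers it ran from 2378 to 4475 and from 1654 to 6960. The neutrophil sum is mostly that of 1 bright gene, Ltf, at 11.73 in control D and 12.52 in E2f3-deleted E. Cxcr2, Mpo, Elane, Ngp and Camp were too dim for the test, so this sum is no measure of neutrophil content.

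**Figure D2:**
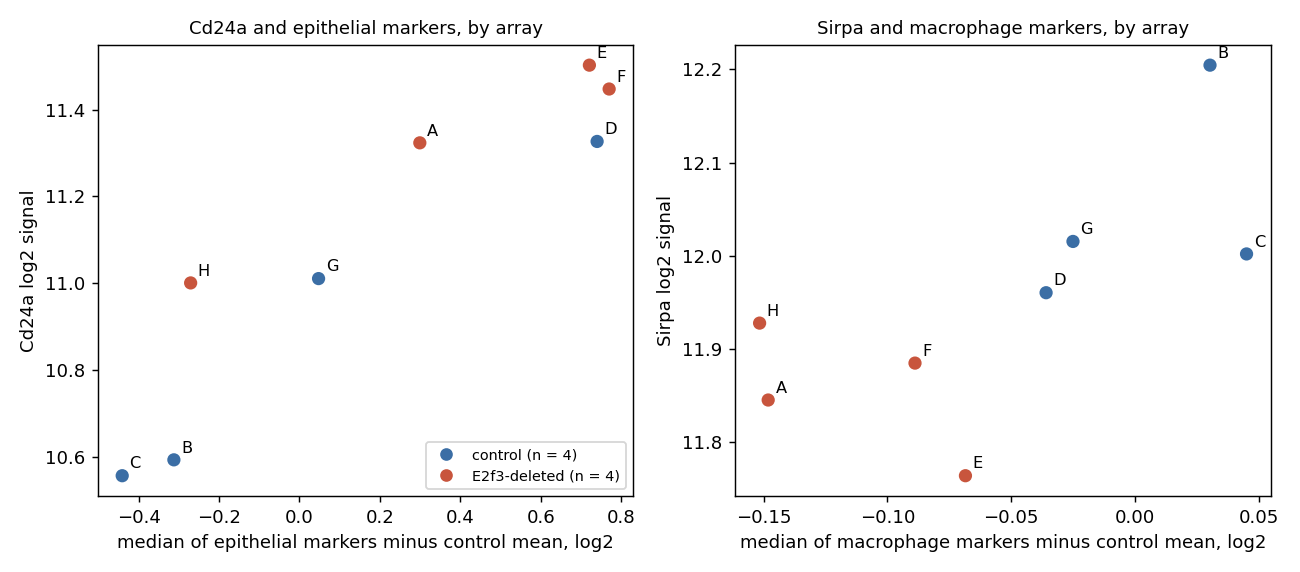
Log2 signal of Cd24a against the median of 14 epithelial markers (left) and of Sirpa against the median of 12 macrophage markers (right), each median taken relative to the control mean in log2 units, on 4 control arrays (blue) and 4 E2f3-deleted arrays (red). Letters are replicates. Arrays with higher epithelial medians had higher Cd24a, with a Pearson's r of 0.927. All E2f3-deleted arrays lay below the controls in both macrophage markers and Sirpa, with an r of 0.672. Within the E2f3-deleted group replicate H had the lowest macrophage median, −0.15, and the highest Sirpa, 11.93.

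Siglecg, which encodes the mouse counterpart of the Siglec that binds CD24, was too dim for the test, averaging 5.26 among controls and 5.01 among E2f3-deleted arrays. Siglec1, or sialoadhesin (CD169), is a sialic acid receptor of resident macrophages that is also induced by interferon. Its brightest probe set had 6.82, 7.25, 7.14 and 6.70 in controls B, C, D and G. In E2f3-deleted A, E, F and H it had 6.64, 6.90, 6.75 and 6.68. Controls C and D stood above all other arrays, while controls B and G lay within the E2f3-deleted range. The difference was −0.24 (SE 0.13, limma, adjusted p = 0.430), with an interval from −0.53 to 0.06, and −0.15 without control C. The other probe sets of Siglec1 had −0.22 (interval −0.42 to −0.02) and −0.17, the latter from the dimmest.

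Of 16 other inhibitory receptors of myeloid cells, 11 were tested. Among these 9 had a lower and 2 a higher mean (median −0.24), where 58.7% of all genes tested had a lower one. At an unadjusted p below 0.05 there was 1 lower gene, against 6.91% of all genes tested, and it did not hold after adjustment. That gene was Cd300lf, a lipid-binding receptor, at 10.75 ± 0.13 in controls and 10.53 ± 0.07 in E2f3-deleted macrophages, without overlap (difference −0.22, SE 0.08, limma, adjusted p = 0.290). Cd22, a Siglec best known from B cells, had −0.36 (SE 0.17). Pilra had −0.45 (SE 0.21), and its groups did not overlap; replicate H, at 8.45, was far below the next lowest array, replicate F at 9.24. Fcgr2b, the inhibitory Fc receptor and brightest of the list, had −0.24 (SE 0.13). The list median was −0.10 without replicate H.

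Among the checkpoint ligands, Cd274 (PD-L1) varied more between arrays than between groups. It has 1 probe set, with 7.04, 7.95, 8.06 and 7.60 in controls B, C, D and G. In E2f3-deleted A, E, F and H it had 7.03, 7.53, 7.60 and 7.56. One array of each group, control B and E2f3-deleted A, was low and at nearly the same level, and controls C and D were the highest. Control arrays averaged 7.66 ± 0.46 and E2f3-deleted arrays 7.43 ± 0.27 (SD, n = 4 per group). The difference of −0.23 (SE 0.23, limma, adjusted p = 0.655) had an interval from −0.77 to 0.30. It was −0.44 without control B and −0.10 without E2f3-deleted A.

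Pdcd1lg2 (PD-L2), the neighbour of Cd274 on the chromosome, lay below the filter, a log2 signal of 5.998, on every array. It had 4.74, 4.83, 4.80 and 5.09 in controls B, C, D and G, and 4.57, 4.69, 5.04 and 4.60 in E2f3-deleted A, E, F and H. The fit without the filter gave a difference of −0.14 (SE 0.12, limma, adjusted p = 0.668), which was −0.06 without control G and −0.24 without E2f3-deleted F. At signals this dim a fold change is compressed. The lower mean of Pdcd1lg2 enters the counts over all members as a description only, and no conclusion on a change is drawn.

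Havcr2 (TIM-3), an inhibitory receptor of T cells that macrophages and dendritic cells also carry, had 11.01, 10.98, 10.84 and 11.17 in controls B, C, D and G. In E2f3-deleted A, E, F and H it had 10.88, 10.89, 10.53 and 10.65. Replicates F and H lay below all controls, whereas A and E lay just above control D, so the groups overlapped narrowly. Control arrays averaged 10.998 ± 0.13 and E2f3-deleted arrays 10.74 ± 0.17 (SD, n = 4 per group). The difference was −0.26 (SE 0.10) with a 95% interval from −0.50 to −0.02 (limma, adjusted p = 0.315; exact permutation test, two-sided, p = 0.0857).

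Lgals9 (galectin-9), a ligand of TIM-3, had 11.22, 11.17, 10.92 and 11.12 in controls B, C, D and G. In E2f3-deleted A, E, F and H it had 10.68, 11.04, 11.02 and 10.85. Control D was the only control within the E2f3-deleted range. The difference was −0.21 (SE 0.10, limma, adjusted p = 0.386), with an interval from −0.44 to 0.02, and −0.14 without replicate A. Over the 8 arrays Pearson's r between Lgals9 and the median of the macrophage markers was 0.880, a description with the same limits as that of Cd24a. Receptor and ligand of the TIM-3 pair had differences of similar size and the same direction, neither past the threshold, and 58.7% of all genes tested had a lower mean. By scan file letter the differences were −0.03 for Havcr2 and −0.11 for Lgals9.

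Of 10 relatives in the TIM and galectin families 7 were tested, with 3 higher and 4 lower means, where 58.7% of all genes tested had a lower one. Their list median was −0.03. This median lay close to 0 and was 0.0064 without E2f3-deleted A, −0.12 without E2f3-deleted F and −0.12 over all 10 without the filter. Lgals1, or galectin-1, was the brightest, at 14.07 ± 0.02 in controls against 13.95 ± 0.07. Its groups did not overlap (difference −0.12, SE 0.05, limma, adjusted p = 0.346). Lgals3, or Mac-2, a galectin abundant in macrophages, had −0.25 (SE 0.12), and Timd2 0.45 (SE 0.25).

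**Figure D3:**
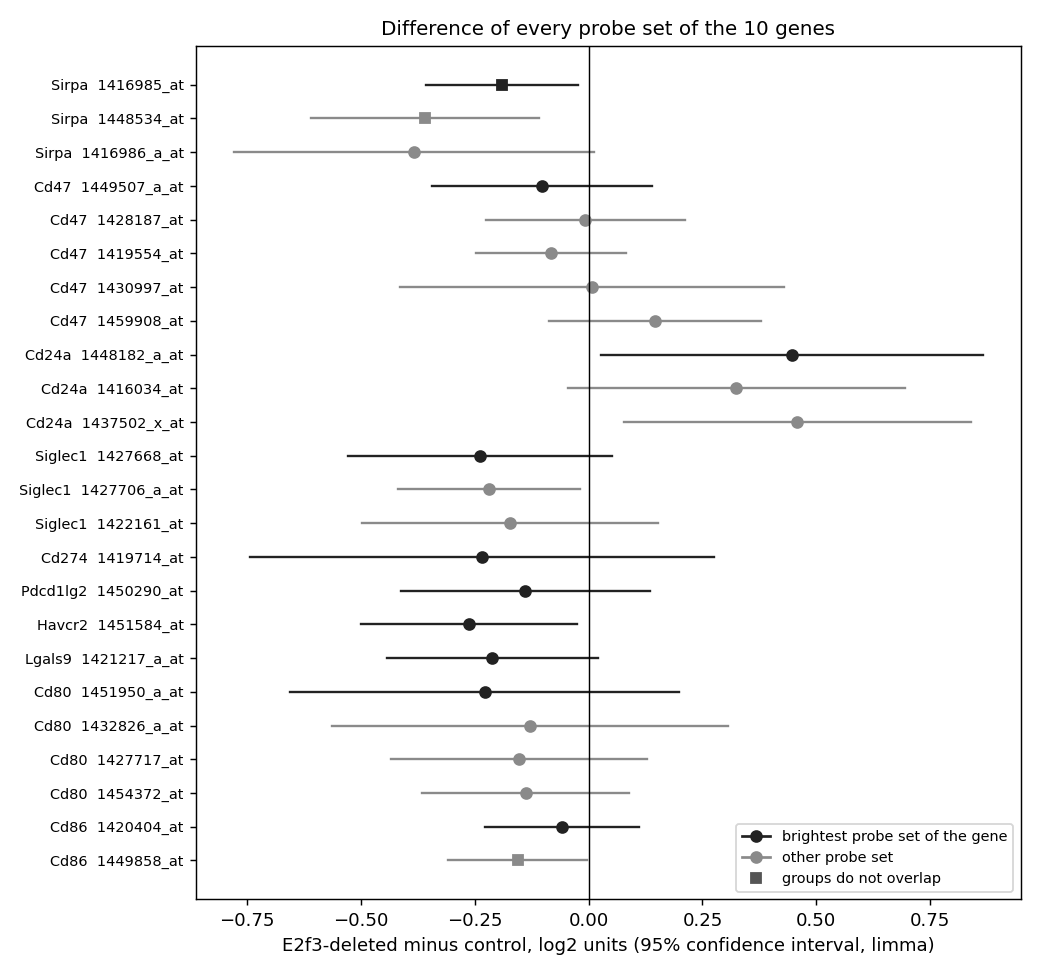
Difference of each of the 24 probe sets of the 10 genes, E2f3-deleted minus control in log2 units (horizontal axis), with its 95% confidence interval from limma fitted over all probe sets. Black marks the brightest probe set of a gene, grey the others, and squares the 3 probe sets whose groups do not overlap; 19 lie below 0 and 5 above, 3 of these 5 from Cd24a.

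Cd80 and Cd86, the ligands of CD28 and CTLA-4, are both known from activated antigen-presenting cells. The brightest probe set of Cd80 had 7.06, 7.51, 7.07 and 6.70 in controls B, C, D and G. In E2f3-deleted A, E, F and H it had 6.99, 7.003, 7.003 and 6.43. Replicate H was the lowest array, and the other E2f3-deleted arrays differed from each other by less than 0.01 and lay within the control range. The difference was −0.23 (SE 0.19, limma, adjusted p = 0.602), with an interval from −0.67 to 0.22. It was −0.09 without replicate H, −0.08 without control C and −0.36 without control G. The other 3 probe sets of Cd80 were dimmer, with control means from 3.36 to 5.08, and had differences from −0.15 to −0.13.

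The probe sets of Cd86 had nearly the same signal and differed in spread. The brightest had 10.61, 10.44, 10.39 and 10.53 in controls B, C, D and G, and 10.36, 10.53, 10.35 and 10.49 in E2f3-deleted A, E, F and H. These groups overlapped widely, with a difference of −0.06 (SE 0.07, limma, adjusted p = 0.715) and an interval from −0.22 to 0.10. It was −0.02 without control B and −0.09 without control D. The other probe set had 10.54, 10.52, 10.50 and 10.51 in controls B, C, D and G, a spread of 0.02 (SD), and 10.24, 10.49, 10.33 and 10.38 in E2f3-deleted A, E, F and H. Every E2f3-deleted array lay below every control array there, and the difference was −0.16 (interval −0.31 to −0.0024, limma over all probe sets, adjusted p = 0.489). Of the 24 probe sets of the 10 genes 19 had a lower mean, against 60.8% of all probe sets, and 3 had a lower group without overlap, against 3.45% of all probe sets, 2 of them being of Sirpa and 1 of Cd86. At an unadjusted p under 0.05 there were 7 of the 24, 5 lower and 2 higher, against 10.1% of all probe sets. Probe sets of a gene measure the same RNA and are not independent.

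Of 13 further costimulatory or B7 family genes of antigen-presenting cells, 8 were tested and all 8 had a lower mean, against 58.7% of all genes tested. Of these, 1 had an unadjusted p below 0.05 that did not hold after adjustment, where 6.91% of all genes tested were lower at that p. Their median was −0.20, but −0.06 by scan file letter, and of the 11 with a probe set, dim ones included, 8 had a lower and 3 a higher mean. The gene with the unadjusted p below 0.05 was Tnfsf9 (4-1BB ligand), a costimulator of the TNF family, with 6.99, 5.70, 6.64 and 6.44 in controls B, C, D and G and 5.25, 6.05, 5.87 and 5.69 in E2f3-deleted A, E, F and H. Control C lay among the E2f3-deleted arrays, and the difference was −0.73 (SE 0.28, limma, adjusted p = 0.311). Tnfsf9 passed the filter only through the controls, so it had to differ. Vsir, which encodes the inhibitory B7 relative VISTA, had −0.23 (SE 0.11) without overlap between the groups, although replicates A, E and F lay just under the lowest control, and replicate H, at 10.52, well below. Icosl, the ligand of ICOS, had −0.21 (SE 0.11), and Cd48, the brightest of the list, −0.17 (SE 0.10).

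**Figure D4:**
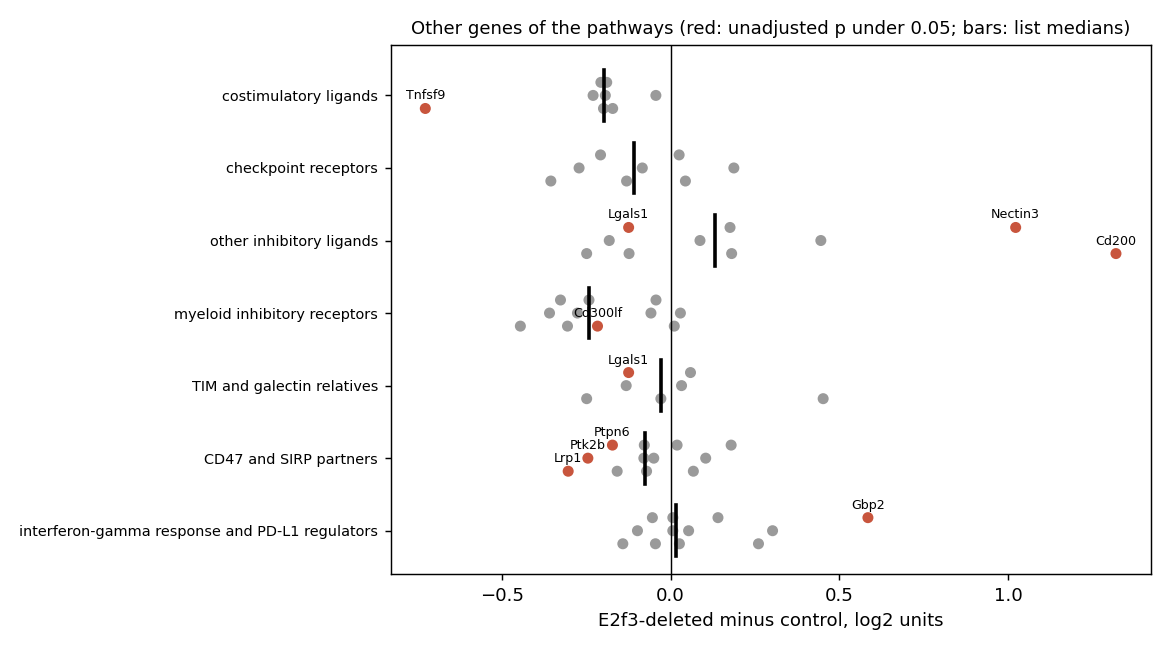
Differences of the tested genes of 7 lists of related genes, E2f3-deleted minus control in log2 units (horizontal axis); each point is a gene, red at an unadjusted p under 0.05, and black bars are list medians. The list labelled costimulatory ligands also holds Vsir, an inhibitory B7 relative. Its tested genes lie below 0 and have a median of −0.20, while Cd200 and Nectin3 lie farthest above 0.

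Ligands of other inhibitory checkpoints included the genes with the largest differences of the 7 lists, Cd200 and Nectin3. Of 13 genes 10 were tested, 6 with a higher and 4 with a lower mean, where 58.7% of all genes tested had a lower one. The median of the list was 0.13, but −0.05 with probe sets averaged per gene. At an unadjusted p below 0.05 there were 2 higher and 1 lower, against 7.27% and 6.91% of all genes tested, and none passed after adjustment. Cd200, whose product restrains macrophages through the receptor CD200R, had 5.35, 5.38, 5.82 and 5.68 in controls B, C, D and G. It had 6.70, 6.03, 6.99 and 7.78 in E2f3-deleted A, E, F and H, every one above every control (difference 1.32, SE 0.33, limma, adjusted p = 0.205). All its control values lie below the filter, which it passed only through the E2f3-deleted group where it is high, so it had to differ, and its difference is a description. Nectin3, an adhesion molecule that also binds T cell receptors of the nectin family, had 6.32, 6.03, 6.64 and 6.62 in controls and 7.47, 6.78, 7.48 and 7.96 in E2f3-deleted A, E, F and H. These groups did not overlap either (difference 1.02, SE 0.25, limma, adjusted p = 0.203). In both genes replicate H was the highest and E the lowest of the E2f3-deleted arrays. The lower gene was Lgals1, given above; this list and that of the galectins share Lgals1 and Lgals3.

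Cd200 is also known from endothelial cells and Nectin3 from several adherent cell types. Signals of endothelial and fibroblast markers are given beside them. The summed signal of the 16 endothelial markers was 1689 to 3400 in controls and 11056, 5486, 10035 and 2479 in E2f3-deleted A, E, F and H. All 16 had a higher mean (median 1.18), where 58.2% of all genes with a probe set had a lower one. The filter kept 14 of the 16, 5 only through the E2f3-deleted group, so no count over the tested ones is given. The summed signal of the 12 fibroblast markers was 9795 to 23869 in controls. It was 31864, 12919, 17891 and 55309 in E2f3-deleted A, E, F and H, so replicates E and F lay within the control range. All 12 were tested and had a higher mean (median 0.60), where 58.7% of all genes tested had a lower one. Of the 12, 1 had an unadjusted p below 0.05, against 7.27% of all genes tested. Replicate H, with the highest Cd200 and Nectin3, had an endothelial sum within the control range and the highest fibroblast sum of all arrays. Replicate E, with the lowest Cd200 and Nectin3 of the E2f3-deleted arrays, had the lowest fibroblast sum of that group. Replicate H is the array described next. It had a summed mast cell and basophil signal of 23182, against 714 to 1110 in controls and 994 to 2644 in the other E2f3-deleted arrays. The part of these cells in either result was not tested. The receptor Cd200r1 had −0.33 (SE 0.28).

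Of the receptors that T cells use in these checkpoints, those tested had control means from 6.43 to 7.64 and those too dim from 3.19 to 5.39. Of 16 genes 15 had a probe set and 8 were tested, 3 with a higher and 5 with a lower mean, where 58.7% of all genes tested had a lower one. The median of these receptors was −0.11, but 0.0061 without control G and −0.22 without control C. At an unadjusted p under 0.05 there were 0, against 14.2% of all genes tested. Lag3 had −0.27 (SE 0.12), Cd244a −0.35 (SE 0.16) and Tnfrsf18, or GITR, 0.19 (SE 0.17). Cd244a was also the brightest. Pdcd1, the receptor PD-1, had 7.30, 6.07, 6.998 and 7.42 in controls B, C, D and G and 6.76, 6.79, 6.58 and 7.76 in E2f3-deleted A, E, F and H, with both extremes of the 8 arrays in different groups (difference 0.03, SE 0.35). Ctla4 and Cd28 were among the 7 genes too dim for the test, as were 8 of the 11 T and NK cell markers.

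Genes of the interferon-gamma response, which is known to induce PD-L1, lay on both sides of 0. Of 12 tested, 8 had a higher and 4 a lower mean (median 0.02), where 58.7% of all genes tested had a lower one. Among the higher, 1 gene had an unadjusted p under 0.05, against 7.27% of all genes tested. It was Gbp2, a guanylate-binding protein, with 10.75, 10.76, 10.50 and 10.83 in controls B, C, D and G and 11.34, 10.96, 11.03 and 11.85 in E2f3-deleted A, E, F and H (difference 0.58, SE 0.19, limma, adjusted p = 0.267). Every E2f3-deleted array lay above every control array. The transcription factors Irf8, the brightest of the list, and Irf1 had −0.14 (SE 0.09) and 0.14 (SE 0.12). Cmtm6, whose product keeps PD-L1 at the cell surface, had 0.01 (SE 0.08). Over the 66 tested genes of all 7 lists, 6 were lower and 3 higher at an unadjusted p under 0.05, where 6.91% and 7.27% of all genes tested were. Tnfsf9 among the lower and Cd200 among the higher passed the filter only through the group where they are high. These counts therefore hold genes that had to differ.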

How the data were processed

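Per the labels' protocols, total RNA was extracted with Trizol and biotinylated for Affymetrix arrays. The deposited values are log2 signals that the authors made with RMA, per the submitters' processing notes; no source used here gives its version. This method gives the arrays a common distribution, so shifts shared by most genes are lost. Values were used as deposited. Precision is limited by having 4 arrays per group.

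Of 45101 probe sets, 34958 had exactly 1 gene symbol in the platform's annotation, 932 several and the others none here or were controls. A gene took the values of its brightest probe set, and a filter at the 40th percentile of gene means (log2 5.998) kept 10916 genes. Differences, E2f3-deleted minus control, were fitted by limma 3.58.1 under R 4.3.3 (lmFit, eBayes, two-sided, Benjamini-Hochberg over all genes tested, threshold 0.05). Groups came from the titles. Single values were also compared by exact permutation over 70 assignments; for the 7 members whose exact p is not given above it was 0.114 to 0.486. The gene test was tested on simulated data.

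Members and lists were chosen with earlier results of these data known; of each list the 3 tested genes with the smallest p and the brightest are named by rule. Other genes named there, such as Siglecg, Calr, Cd200r1, Pdcd1, Ctla4, Cd28 and Cmtm6, were chosen after their values were seen. List symbols were matched through synonyms where needed. Cell sums are of linear signals over all markers with a probe set. The alternatives were other probe set rules, filters, normalizations, variance models, array weights, each array left out, and grouping by the letters of the scan files, which differ from the title letters and exchange control B and E2f3-deleted F.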

Additional observations from a re-analysis of the deposited data

Results flagged for a closer look

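Over the 24 probe sets, 48 groups of 4 arrays were examined for 1 array standing far from the other 3, and chance marks about 1 in 20 such groups. In these data 3 were marked. Cd274 had 7.03 in E2f3-deleted replicate A, against 7.53 to 7.60 in the other E2f3-deleted arrays. Cd80 had 6.43 in E2f3-deleted replicate H, against 6.99 to 7.003 in the others. A dim Cd47 probe set had 6.35 in control replicate C, against 6.12 to 6.14 in the other controls.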

How the results depend on the processing

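No member passed an adjusted p of 0.05 under any of the 19 alternatives, where members' adjusted p ran from 0.208 to 0.991, and 8 or 9 of the 10 had a lower mean. Sirpa, Cd47, Siglec1, Cd274, Pdcd1lg2, Havcr2, Lgals9 and Cd80 stayed lower and Cd24a higher in each. With arrays grouped by scan file letter Cd86 was 0.069, and with the endothelial median as covariate, chosen after seeing the data, 0.057. The scan letter grouping also brought Sirpa to −0.03, Havcr2 to −0.03 and Cd24a to 0.02, and moved Cd274 to −0.51 and Pdcd1lg2 to −0.29. It gave −0.11 for Lgals9, and the endothelial covariate gave −0.52 for Cd80. The median difference of the tested members was −0.15 with a 60th percentile filter, −0.13 with array weights and −0.11 by scan file letter, and −0.26 to −0.14 with 1 array left out. Genes past the threshold numbered 0 to 60 with 1 array left out. Genes at an unadjusted p under 0.05, 1548 as reported, were 945 with the 60th percentile filter, 449 by scan file letter and 1010 to 1855 with 1 array left out. Without the filter, where more genes are tested, they were 2157. The median of the other inhibitory ligands was −0.05 with probe sets averaged per gene, −0.02 with the 60th percentile filter, −0.07 by scan file letter and −0.10 with the endothelial median as covariate. That of the TIM and galectin relatives was −0.08 with averaged probe sets, −0.13 with the 60th percentile filter and −0.08 by scan file letter, and that of the myeloid inhibitory receptors −0.12 with array weights and −0.35 without E2f3-deleted replicate F. The 60th percentile filter left no checkpoint receptor of the T cell list, so its median could not be given. No paired analysis was possible because the groups share no replicate letter. The causes were not tested.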

Other observations

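Cd80 and Cd274 had the widest ranges of the 10 genes over the 8 arrays, 1.08 and 1.03 log2 units. The tested genes whose pattern was most like that of Cd80 were Dxo, Lce1h, Nol9, Cass4 and Dolpp1, with Pearson's r from 0.956 to 0.980 over the 8 arrays. Those most like Cd274 were Cep131, Mgat4b, Sel1l3, Bsg, which encodes basigin, and Bhlhe40, a transcription factor, with r from 0.927 to 0.981, and Bhlhe40 put the 8 arrays in the same order as Cd274. Of the 10915 other genes tested, 81 had an r above 0.9 with Cd80 and 9 with Cd274. These correlations were selected among many over few arrays and are a description.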
